A study of Mus musculus with 4 samples.

Results

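The messenger RNAs of splicing factors and spliceosome subunits were examined in purified ependymal multicilia with and without depletion of Fmrp, the RNA-binding protein encoded by Fmr1. Members were all rows of the deposited expression table whose gene symbol begins with Hnrnp, Srsf, Snrp, Sf3a, Sf3b or U2af. The rule found 94 transcript rows of 55 genes, of 12515 rows of 10213 genes in all. These were 20 heterogeneous nuclear ribonucleoprotein (hnRNP) genes with 46 rows, 10 SR protein genes with 18 rows, 13 genes of the small nuclear ribonucleoproteins (snRNPs) with 17 rows, 9 SF3 genes with 9 rows and 3 U2AF genes with 4 rows. Mouse ependymal cells (mEPCs) were grown from the telencephalon of C57BL/6 pups of postnatal day 0 to 1 and were differentiated without serum for 10 days. All groups received 40 pmol siRNA every 3 days, either the control siRNA (Ctrl-i) or the siRNA Fmr-i1 against Fmr1. Each group had 2 libraries of polyadenylated RNA, numbered Exp.1 and Exp.2, and every pair of values below gives Exp.1 first. The material was the apical cortex with its multicilia rather than whole cells, from mixed cultures, and the knockdown acted in all transfected cells and not in cilia alone. In such bulk material, fewer cells of a type and less RNA per cell cannot be told apart. The question was whether this class of mRNA, whose protein products act mainly in the nucleus, differed between Fmr-i1 and Ctrl-i cilia.

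Splicing removes introns from pre-mRNA in the nucleus. The U1 snRNP binds the 5′ splice site, the U2AF heterodimer binds the polypyrimidine tract and the AG of the 3′ splice site, and the U2 snRNP with its SF3A and SF3B subcomplexes binds the branch point. Sm proteins form the ring around each major spliceosomal snRNA except U6. SR proteins mostly bind exons and favour their inclusion, while many hnRNPs bind pre-mRNA and favour exon skipping, and several hnRNPs also travel to the cytoplasm with mRNA. Many of these genes regulate their own level through alternative exons that bring in a premature stop codon. A gene often has transcripts with and without such a stop side by side.

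The targeted gene had a single row, Fmr1-205, at 0.42 and 8.13 FPKM (mapped fragments relative to the length of the transcript and the size of the library) in Ctrl-i. It was listed at 0 in both Fmr-i1 libraries. The row was therefore lower after Fmr-i1, but it was close to the bottom of the scale in Ctrl-i Exp.1. Sequencing depth is unknown because the table holds no counts, and p-values measure only the spread between these 4 libraries. An exact permutation test of 2 against 2 libraries cannot give a p below 0.333. Both Fmr-i1 values were given as 0 for 162 rows of the whole data set, whereas in Ctrl-i the lowest value was 0.01 FPKM. A transcript at 0 in Ctrl-i could thus not appear among the members, and a listed 0 may not be a measured absence. Mitochondrial rRNA took 27.4% and 37.6% of the summed FPKM in Ctrl-i, and 28.4% and 23.0% after Fmr-i1. Of 19 symbols on the ependymal marker list, which held both Dnai1 and its older name Dnaic1, 18 were measured. Their summed levels were 1104 and 1504 FPKM in Ctrl-i and 1398 and 1310 FPKM in Fmr-i1. Of 10 microglial markers, 0 were measured. The 9 measured astrocyte markers of 10 listed summed to 3366 and 2643 FPKM in Ctrl-i and to 2349 and 2337 FPKM in Fmr-i1, led by Gfap, an intermediate filament gene. Summed levels of the fibroblast and mural list (4 of 9 measured) were 77.6 and 57.0 against 153 and 111 FPKM, of the neuronal list (5 of 11) 98.2 and 90.0 against 75.6 and 92.4 FPKM, and of the oligodendrocyte list (5 of 11) 100 and 107 against 114 and 142 FPKM, while 1 of 7 endothelial and 2 of 7 choroid plexus markers were measured. Nearly all of the fibroblast and mural sum was Acta2, at 73.3 and 55.9 against 150 and 100 FPKM. The part of these differences in the results below was not tested.

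Transcripts of all 5 families were present in Ctrl-i cilia, with the hnRNP genes at the highest summed level. Summed over rows, the hnRNP genes measured 1572 and 1364 FPKM in Ctrl-i, the snRNP genes 563 and 476 FPKM, the SR protein genes 458 and 445 FPKM, the SF3 genes 274 and 250 FPKM and the U2AF genes 47.2 and 45.8 FPKM. All members together measured 2915 and 2581 FPKM in Ctrl-i and 3204 and 3210 FPKM in Fmr-i1. As a share of the FPKM not encoded by the mitochondrial genome, Ctrl-i had 0.694% and 0.710% and Fmr-i1 had 0.798% and 0.780%. On either of these scales, both Fmr-i1 libraries exceeded both Ctrl-i libraries. By family the same share was 0.374% and 0.375% against 0.438% and 0.419% for hnRNP genes and 0.134% and 0.131% against 0.146% and 0.147% for snRNP genes, both without overlap between the groups. For SR proteins it was 0.109% and 0.122% against 0.120% and 0.136%, and for SF3 it was 0.0653% and 0.0689% against 0.0781% and 0.0619%, and both of these overlapped. The U2AF share, 0.0112% and 0.0126% against 0.0151% and 0.0159%, did not overlap. Library medians rose as well, from 8.32 and 7.73 FPKM with Ctrl-i to 8.99 and 9.39 FPKM with Fmr-i1. When each sum was divided by the median of its library, the groups overlapped for all members together. They also overlapped for the hnRNP and the snRNP genes, but not for the U2AF genes.

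**Figure D1:**
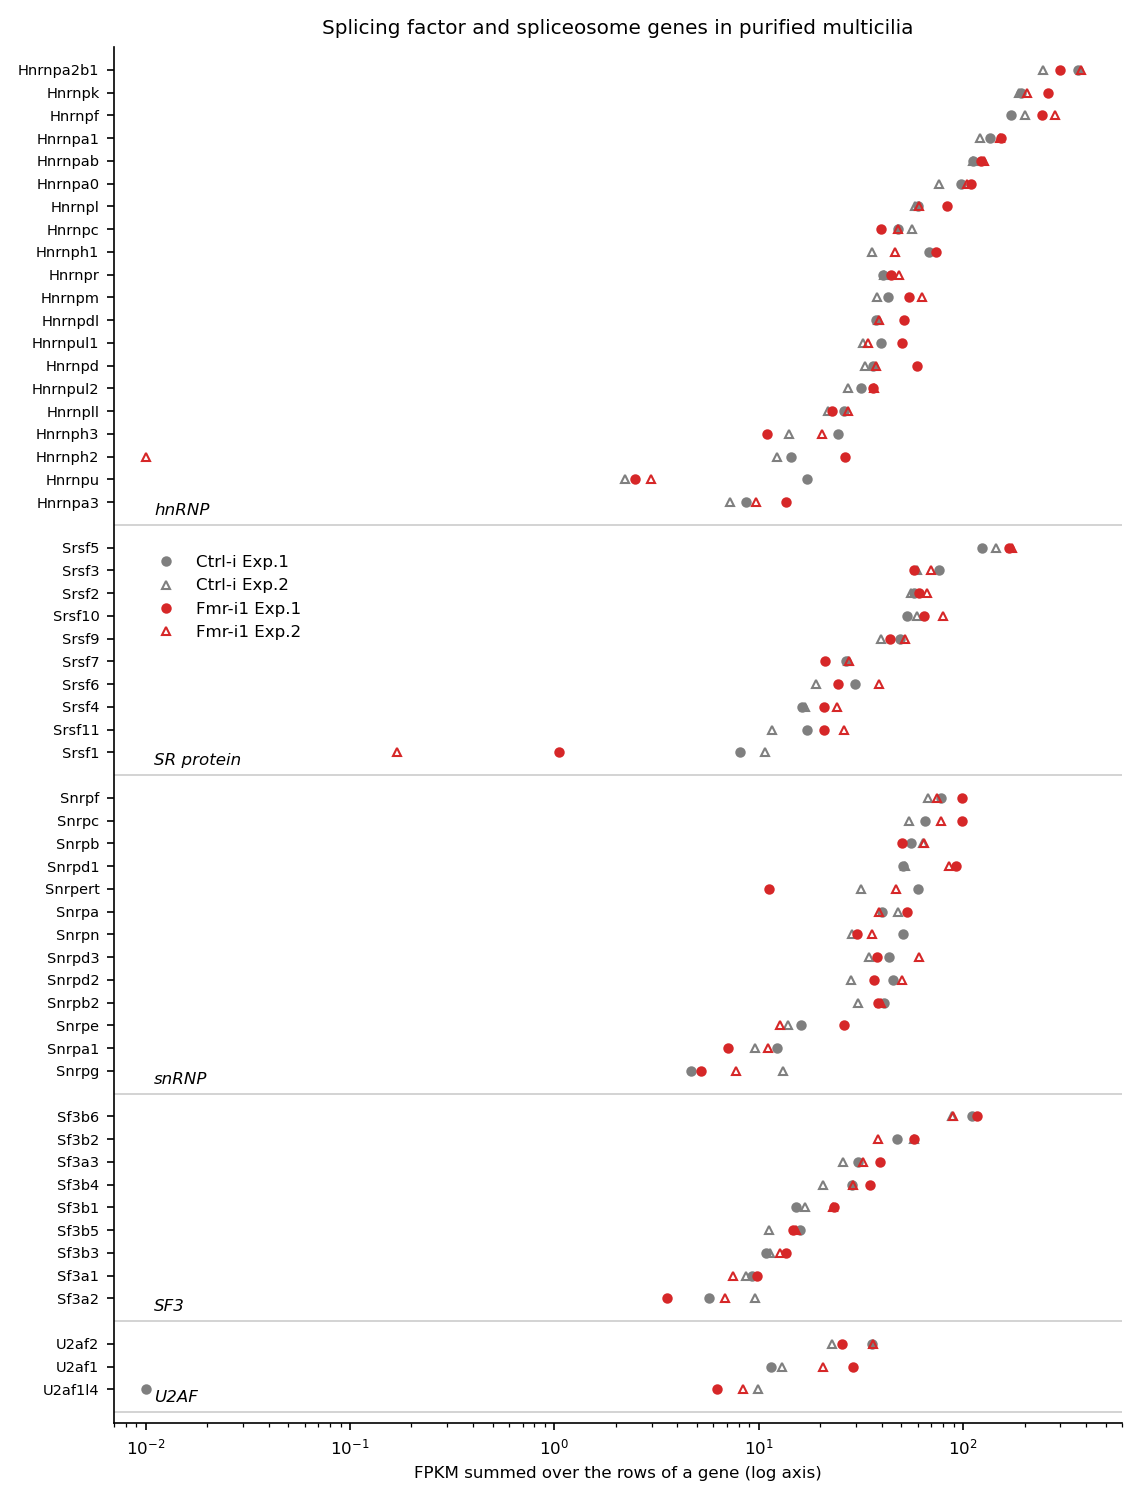
FPKM of each of the 55 genes, summed over its rows, on a log axis, in the 2 Ctrl-i libraries (grey) and the 2 Fmr-i1 libraries (red), with circles for Exp.1 and triangles for Exp.2, ordered within each family by the Ctrl-i mean. Hnrnpa2b1 stands highest, and Srsf1, Hnrnph2 and U2af1l4 each have a library far from the others.

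Most member genes were slightly higher after Fmr-i1, and no gene passed the test. Of 55 gene sums, 28 were higher in Fmr-i1 in both experiments and 3 were lower in both, where 35.1% and 16.1% of all 10213 gene sums were so. The groups did not overlap for 24 genes that were higher, against 26.7% of all gene sums, and for 1 gene that was lower, against 10.7%. By limma with Benjamini-Hochberg adjustment over 9804 gene sums, 0 of 55 members passed an adjusted p of 0.05, as did 0% of all gene sums. At an unadjusted p under 0.05 there were 3 members (Srsf1, Snrpd1 and U2af1) and 519 genes in all. The lowest adjusted p of a member was 0.757, for Srsf1.

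Much of the higher level was shared by the whole table. The fitted log2 difference of member gene sums, on the log2(FPKM + 1) scale, had a median of 0.23, with 40 positive and 15 negative, beside a median of 0.165 over all gene sums tested. The members' median was 0.17 in Exp.1 and 0.30 in Exp.2. When the libraries were scaled to a common median FPKM, the members' median was 0.039 beside -0.008 for all genes. After this scaling 15 members were higher in both experiments and 10 were lower, against 23.9% and 26.4% of all gene sums. The 15 were Hnrnpa0, Hnrnpa1, Hnrnpa3, Hnrnpf, Hnrnpm, Hnrnpul2, Srsf4, Srsf10, Srsf11, Snrpc, Snrpd1, Sf3a3, Sf3b1, Sf3b4 and U2af1. They were higher in both experiments under each of the 4 scalings tried, as were 23.5% of all gene sums. For 9 of them, namely Hnrnpf, Hnrnpm, Hnrnpul2, Srsf4, Srsf11, Snrpc, Snrpd1, Sf3b1 and U2af1, the groups also stayed apart under each scaling, as they did for 16.6% of all gene sums. The 10 lower after median scaling were Hnrnpc, Srsf1, Srsf2, Srsf3, Srsf7, Snrpa1, Snrpb, Sf3a1, Sf3a2 and Sf3b6. Of these, 3 were lower under each scaling, as were 14.6% of all gene sums. After median scaling the groups were apart for 6 of the 10, namely Hnrnpc, Srsf1, Srsf3, Srsf7, Snrpa1 and Sf3a1. Under each scaling they stayed apart for Srsf1 alone.

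**Figure D2:**
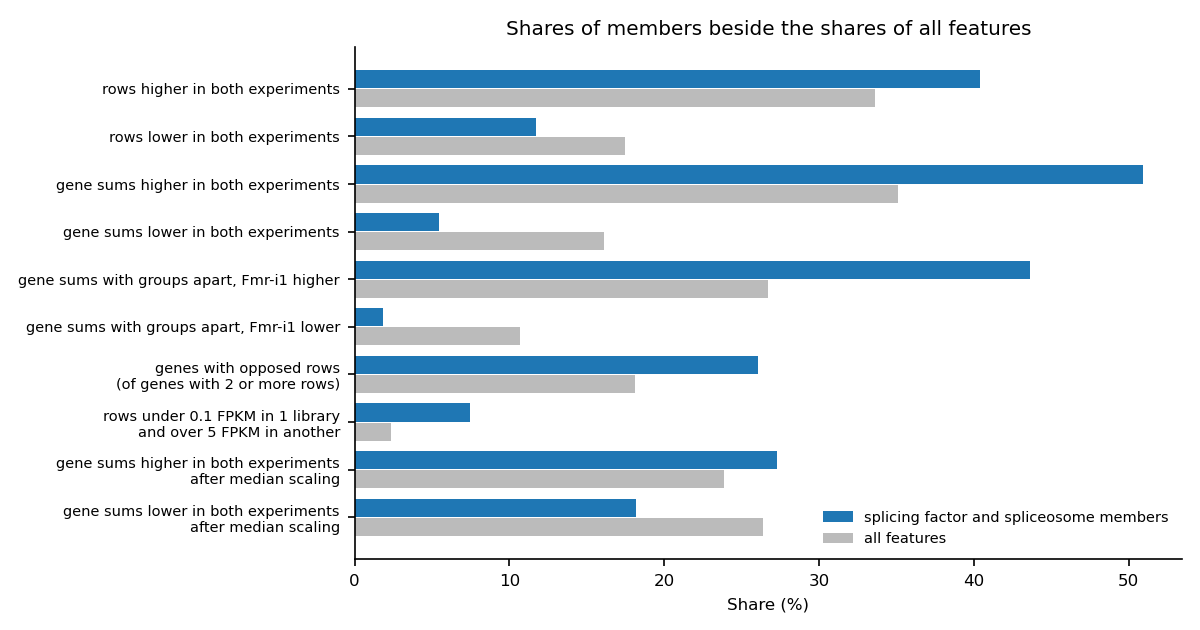
Share in percent of the members (blue) and of all features of the table (grey) that met each description named on the vertical axis. Members were higher in both experiments for 50.9% of gene sums beside 35.1% of all, and the bars drew closer after median scaling, at 27.3% beside 23.9%.

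The gene with the highest ratio among those higher in both experiments was U2af1, which encodes the small U2AF subunit that reads the AG of the 3′ splice site. It measured 11.5 and 13.0 FPKM in Ctrl-i and 28.9 and 20.7 FPKM in Fmr-i1. Both Fmr-i1 libraries were above both Ctrl-i libraries, with a log2 difference of 0.94 ± 0.39 (SE, n = 2 per group, adjusted p = 0.915 by limma). Its partner U2af2, the large subunit that binds the polypyrimidine tract, measured 35.7 and 22.9 FPKM in Ctrl-i and 25.6 and 36.3 FPKM in Fmr-i1, so the groups overlapped. The paralog U2af1l4, an auxiliary factor of the same family, was at 0.01 and 9.92 FPKM in Ctrl-i and at 6.24 and 8.35 FPKM in Fmr-i1. Its fitted log2 difference of 1.31 ± 0.72 (SE) rested on the value near 0 in Ctrl-i Exp.1, since in Exp.2 the gene was lower in Fmr-i1.

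Among the snRNP genes, the 2 with groups that did not overlap were Snrpd1 and Snrpc. Snrpd1, a subunit of the Sm ring, measured 50.6 and 51.8 FPKM in Ctrl-i and 92.5 and 85.4 FPKM in Fmr-i1. The Ctrl-i libraries nearly coincided and both Fmr-i1 libraries lay well above them, with a log2 difference of 0.78 ± 0.31 (SE, n = 2 per group, adjusted p = 0.911 by limma). Snrpc, the C protein of the U1 snRNP, measured 65.4 and 54.4 FPKM in Ctrl-i and 98.6 and 77.8 FPKM in Fmr-i1, with a log2 difference of 0.55 ± 0.30 (SE). The rest of the Sm ring did not share the pattern of Snrpd1. Snrpf, the snRNP gene with the highest Ctrl-i mean, measured 77.7 and 67.6 FPKM against 98.5 and 74.3 FPKM, higher in both experiments but with overlapping groups. Snrpb, which encodes the SmB proteins, measured 55.7 and 63.7 FPKM against 50.2 and 64.3 FPKM. Snrpd2, Snrpd3, Snrpe, Snrpg and Snrpn, the neuronal SmN, were higher in 1 experiment and lower in the other. So were Snrpa, Snrpa1 and Snrpb2, which encode the A protein of the U1 snRNP and the 2 U2-specific proteins. Snrpg had only a row annotated as a processed transcript, Snrpg-203, between 4.69 and 13.2 FPKM. Snrpert is annotated as a processed pseudogene of 279 bases and such a copy can share reads with its parent gene, so its values of 60.0 and 31.8 FPKM in Ctrl-i and 11.3 and 47.2 FPKM in Fmr-i1 are uncertain.

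SF3 genes, each with a single row, were led by Sf3b6, the branch point protein p14, at 111 and 88.6 FPKM in Ctrl-i and 117 and 89.8 FPKM in Fmr-i1. The difference of Sf3b6 was smaller than the spread between experiments. Sf3b1, the large subunit that clasps the branch point helix, measured 15.3 and 16.8 FPKM in Ctrl-i and 23.5 and 23.1 FPKM in Fmr-i1. These groups were apart, with a log2 difference of 0.51 ± 0.37 (SE, adjusted p = 0.927 by limma). Sf3a3 (30.6 and 26.0 against 39.1 and 32.6 FPKM), a subunit of SF3A, and Sf3b4 (28.5 and 20.6 against 35.0 and 29.0 FPKM), which contacts pre-mRNA near the branch point, were also higher in both experiments, as was Sf3b3. Sf3b2, at 47.3 and 57.4 against 57.3 and 38.4 FPKM, was higher in Exp.1 and lower in Exp.2, as was Sf3a1, whereas Sf3b5 was lower in Exp.1 and higher in Exp.2. Sf3a2, another SF3A subunit, was lower in both, at 5.70 and 9.62 against 3.58 and 6.85 FPKM, with overlapping groups.

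Srsf1, the founding SR protein, was the member with the largest difference. Its only row in the table, Srsf1-202 (chromosome 11, 88047803 to 88050410, plus strand, GRCm38), measured 8.09 and 10.7 FPKM in Ctrl-i and 1.05 and 0.17 FPKM in Fmr-i1. Both Fmr-i1 libraries were far below both Ctrl-i libraries, under each of the 4 scalings. The log2 difference was -2.74 ± 0.53 (SE, n = 2 per group, adjusted p = 0.757 by limma), on a scale where the added 1 FPKM shrinks the change of low values. Other Srsf1 transcripts were not analysed here, so the value is that of 1 transcript and not of the gene. Of the remaining SR proteins, Srsf2, Srsf4, Srsf5, Srsf10 and Srsf11 were higher in both experiments without overlap between groups. After median scaling, only Srsf4 and Srsf11 of these stayed apart. Srsf5 had the highest sum, 123 and 145 FPKM in Ctrl-i and 168 and 174 FPKM in Fmr-i1. Srsf2, at 57.6 and 55.6 against 61.1 and 66.4 FPKM, was lower in both experiments after median scaling. Srsf10, an SR protein that represses splicing when dephosphorylated, measured 53.2 and 59.3 against 64.5 and 80.1 FPKM. Srsf3 (76.1 and 59.4 against 57.8 and 69.8 FPKM), Srsf9 (49.0 and 39.9 against 44.1 and 51.8 FPKM), Srsf6 and Srsf7 were lower in Exp.1 and higher in Exp.2.

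The hnRNP family held the 3 most abundant members. Hnrnpa2b1, which binds exonic silencers and also targets transported mRNAs, measured 367 and 247 FPKM in Ctrl-i and 297 and 377 FPKM in Fmr-i1, so the groups overlapped. Hnrnpk, a KH-domain protein that binds C-rich stretches, measured 192 and 188 FPKM against 262 and 205 FPKM. Hnrnpf, which binds G tracts, measured 172 and 201 FPKM against 245 and 283 FPKM. The log2 difference of Hnrnpf was 0.50 ± 0.29 (SE, adjusted p = 0.915 by limma). Hnrnpk and Hnrnpf were both higher without overlap, but for Hnrnpk the groups overlapped after median scaling. Hnrnpa1, a classical splicing repressor, measured 136 and 120 FPKM against 154 and 151 FPKM. Hnrnpab measured 112 and 112 FPKM against 123 and 127 FPKM. Hnrnpm, which binds GU-rich pre-mRNA, measured 42.9 and 38.1 FPKM in Ctrl-i and 54.5 and 63.0 FPKM in Fmr-i1 and had a log2 difference of 0.52 ± 0.32 (SE). Hnrnpa3 was at a low level, 8.66 and 7.28 FPKM in Ctrl-i and 13.6 and 9.68 FPKM in Fmr-i1 (log2 difference 0.48 ± 0.42, SE). Hnrnpa0, Hnrnpd, Hnrnpdl, Hnrnpl, Hnrnpr and Hnrnpul2 were likewise higher without overlap, and Hnrnph1 and Hnrnpul1 were higher in both experiments with overlap. After median scaling the groups overlapped, as for Hnrnpk, also for Hnrnpa0, Hnrnpa1, Hnrnpa3, Hnrnpab, Hnrnpd, Hnrnpdl, Hnrnpl and Hnrnpr. Before scaling, 26.7% of all gene sums were higher without overlap. Hnrnpc, which coats U-rich stretches of nascent transcripts, was the only hnRNP sum lower in both experiments, at 48.2 and 56.2 FPKM against 39.7 and 48.3 FPKM. Hnrnpll, Hnrnph2, Hnrnph3 and Hnrnpu were mixed. Hnrnpu, a nuclear scaffold protein, had only a nonsense-mediated decay transcript in the table, Hnrnpu-206, at 17.3 and 2.21 FPKM against 2.49 and 2.96 FPKM.

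**Figure D3:**
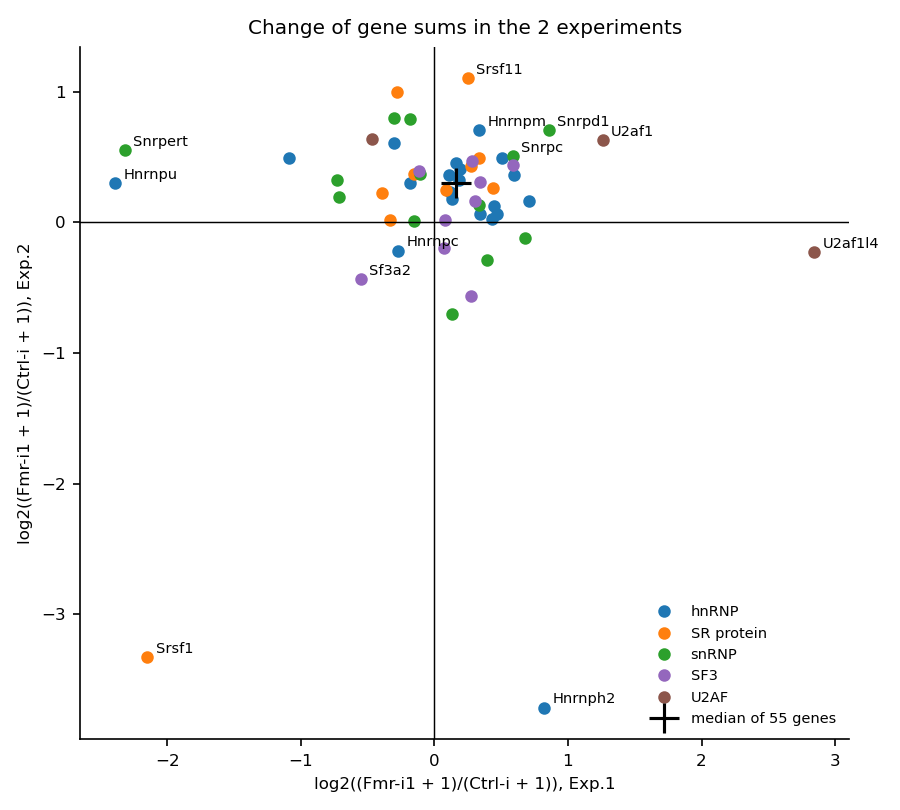
Log2 ratio of Fmr-i1 over Ctrl-i, after adding 1 FPKM, for each of the 55 gene sums in Exp.1 (horizontal) and Exp.2 (vertical), coloured by family, with a cross at the median of 0.17 and 0.30. Most genes lie close to the cross, and Srsf1 is low in both experiments. Hnrnph2, U2af1l4, Hnrnpu and Snrpert are on opposite sides of 0 in the 2 experiments, much further from 0 in 1 of them.

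Member genes were divided over several transcript rows more often than the table as a whole. The table had 2 or more rows for 23 of 55 members (41.8%) and for 18.0% of all symbols, and up to 5 rows for a member. Rows were noisier than sums. Between the 2 Ctrl-i libraries the median absolute log2 difference was 0.343 for the 91 member rows that averaged 1 FPKM or more and 0.239 for the 55 gene sums. Between the groups it was 0.414 and 0.396 for rows in the 2 experiments and 0.338 and 0.367 for sums, and between the 2 Fmr-i1 libraries it was 0.416 for rows and 0.348 for sums. A typical member row or sum thus differed between groups about as much as between the Fmr-i1 libraries. Of the 94 rows, 38 were higher in Fmr-i1 in both experiments and 11 were lower in both, where 33.6% and 17.5% of all rows were so, and 45 were mixed. By limma over 11898 rows, 0 of 91 member rows and 0% of all rows passed an adjusted p of 0.05. At an unadjusted p under 0.05 there were 4 member rows (Srsf1-202, Srsf11-202, Hnrnph3-201 and Snrpd1-201) and 598 rows in all. The 3 member rows left out of this test, with means under 1 FPKM, were Hnrnpa2b1-211, Hnrnph1-204 and Hnrnpr-207.

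Rows not annotated as protein coding made up a small part of the members' level. The 80 rows annotated as protein coding held 93.6% and 93.8% of the members' summed FPKM in Ctrl-i, and 95.1% and 94.0% after Fmr-i1. The 6 nonsense-mediated decay rows, from Hnrnpdl, Hnrnph3, Hnrnpu, Snrpe and Srsf3, summed to 64.7 and 42.7 FPKM in Ctrl-i and to 47.3 and 61.7 FPKM in Fmr-i1. These groups overlapped, and only Snrpe-206 was higher in both experiments, at 5.69 and 6.11 against 9.75 and 7.65 FPKM. The 5 processed transcripts, from Hnrnph1, Srsf5, Srsf10 and Snrpg, summed to 58.8 and 84.6 FPKM against 98.8 and 81.5 FPKM. The 2 retained-intron rows, Hnrnpa2b1-211 and Srsf2-203, were near the bottom of the scale, with sums of 2.84 and 2.2 against 0.74 and 1.89 FPKM. The remaining row not annotated as protein coding was the processed pseudogene Snrpert, at 60.0 and 31.8 against 11.3 and 47.2 FPKM. Hnrnpa2b1-211 was the only member row listed at 0, in both Fmr-i1 libraries, after 2.07 and 0.84 FPKM in Ctrl-i. Srsf3-201 carries the exon that makes the Srsf3 transcript a target of decay. Its coding part, at chr17:29039454-29039484 on the plus strand (GRCm38), is shown in capitals after the last 15 shared coding bases, because it is the form by which the gene is known to limit itself. A stop codon follows directly.
Srsf3-201: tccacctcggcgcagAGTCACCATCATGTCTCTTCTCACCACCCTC
The row with this exon measured 11.9 and 10.2 FPKM in Ctrl-i and 8.27 and 20.0 FPKM in Fmr-i1, and the coding row Srsf3-202 measured 64.1 and 49.2 FPKM against 49.5 and 49.8 FPKM. The exon-bearing row thus made up 15.7% and 17.2% of both rows in Ctrl-i, and 14.3% and 28.7% after Fmr-i1, lower in Exp.1 and higher in Exp.2.

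In 6 member genes at least 1 row was higher in Fmr-i1 in both experiments while another was lower in both: Hnrnpa2b1, Hnrnph1, Hnrnpm, Snrpa, Srsf5 and Srsf11. This was 26.1% of the 23 members with 2 or more rows, beside 18.1% of the 1841 such genes in the table. Genes with more rows have more chances to meet this description, and by number of rows the members were close to the rest. It held for 1 of 12 members with 2 rows beside 13.8% of all such genes, for 3 of 8 with 3 rows beside 32.5%, and for 2 of 3 with 4 or more rows beside 48.7%. Within a single experiment, 15 of the 23 members had rows on both sides in Exp.1 and 14 in Exp.2, beside 57.7% and 54.6% of all genes with several rows. With the share of each row within its gene as the measure, limma called 0 of 59 member rows and 0% of 3923 rows in all. At an unadjusted p under 0.05 there were 4 member rows, both rows of Srsf11 and both rows of Hnrnph3, and 178 in all. In any gene with 2 rows the share of 1 row mirrors that of the other, so the 4 rows are 2 comparisons. That of Hnrnph3 includes a value of 0.01 FPKM, for Hnrnph3-201 in Fmr-i1 Exp.1.

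**Figure D4:**
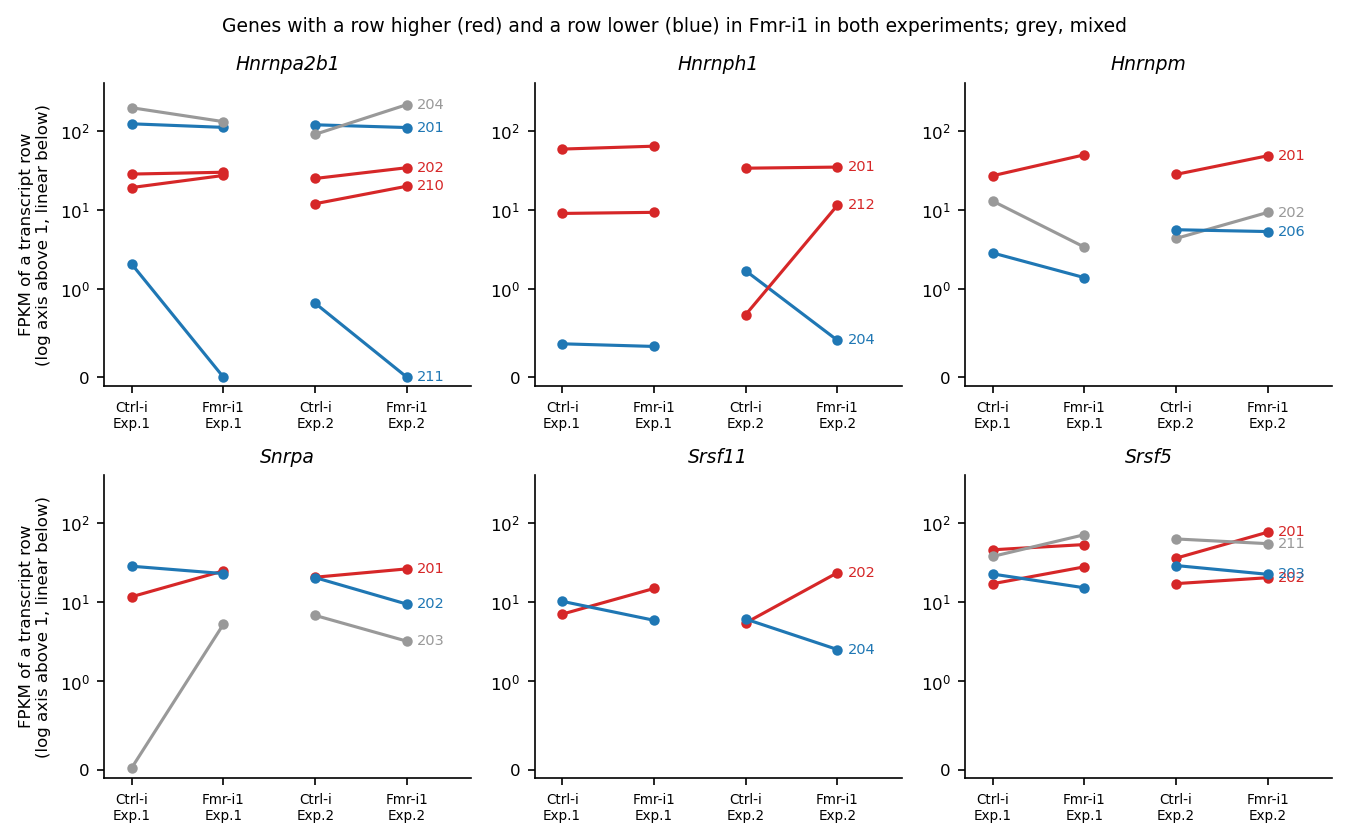
FPKM of every transcript row of the 6 genes, with a line from Ctrl-i to Fmr-i1 within each experiment, on an axis that is logarithmic above 1 FPKM and linear below. Red rows were higher in Fmr-i1 in both experiments, blue rows lower in both and grey rows mixed, with the GENCODE transcript number at the right; the crossing of the rows of Srsf11 is the widest.

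Srsf11, an SR-related protein that contacts U2AF, had the widest separation of its rows. Srsf11-202 measured 7.07 and 5.48 FPKM in Ctrl-i and 14.9 and 23.6 FPKM in Fmr-i1, and Srsf11-204 measured 10.3 and 6.13 FPKM in Ctrl-i and 5.92 and 2.53 FPKM in Fmr-i1. Neither row's groups overlapped. The log2 difference was 1.45 ± 0.47 (SE) for Srsf11-202 and -0.86 ± 0.48 (SE) for Srsf11-204, and the adjusted p of both shares was 0.929 by limma. The rows share 78.7% of their combined exonic bases. Srsf11-204 starts at an upstream exon and adds 105 coding bases, in 2 exons between chr3:158031634-158036605 on the minus strand (GRCm38). They are shown in capitals before the first 15 coding bases of Srsf11-202, since the 2 rows encode proteins that differ by this amino-terminal stretch.
Srsf11-204: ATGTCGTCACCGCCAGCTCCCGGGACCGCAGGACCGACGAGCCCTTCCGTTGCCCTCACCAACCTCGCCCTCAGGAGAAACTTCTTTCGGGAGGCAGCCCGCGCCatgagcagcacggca
Srsf11-204, the only row with these bases as coding sequence, took 59.2% and 52.8% of the Srsf11 level in Ctrl-i, and 28.4% and 9.70% after Fmr-i1. This was the only one of the 6 genes for which rows lay on both sides past a ratio of 1.5.

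Hnrnpa2b1 had 5 rows, and the coding exons they share or lack did not sort their directions. Hnrnpa2b1-201 was lower, at 122 and 119 FPKM in Ctrl-i and 110 and 110 FPKM in Fmr-i1, and Hnrnpa2b1-202 was higher, at 19.2 and 25.0 against 27.3 and 34.1 FPKM. Hnrnpa2b1-210 was higher too, at 28.4 and 11.99 against 29.9 and 19.95 FPKM, although it has the same coding sequence as Hnrnpa2b1-201. The most abundant row, Hnrnpa2b1-204, measured 195 and 90.1 FPKM in Ctrl-i and 130 and 214 FPKM in Fmr-i1, lower in Exp.1 and higher in Exp.2. Hnrnpa2b1-202 and Hnrnpa2b1-204 hold a coding exon of 120 bases in the glycine-rich region, at chr6:51464428-51464547 on the minus strand (GRCm38), which Hnrnpa2b1-201 and Hnrnpa2b1-210 skip. It is shown in capitals with 15 coding bases on each side, as the alternative exon that separates the 2 pairs of rows.
Hnrnpa2b1-202: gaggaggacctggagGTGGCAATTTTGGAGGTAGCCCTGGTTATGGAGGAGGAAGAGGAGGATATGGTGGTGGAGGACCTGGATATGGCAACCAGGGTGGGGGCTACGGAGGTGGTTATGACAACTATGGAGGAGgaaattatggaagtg
Rows with the exon summed to 214 and 115 FPKM in Ctrl-i and to 157 and 248 FPKM in Fmr-i1, and rows without it to 151 and 131 against 140 and 130 FPKM. With the exon were 58.7% and 46.8% of the level in Ctrl-i, and 52.9% and 65.7% after Fmr-i1, so the direction differed between experiments and the groups overlapped.

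Hnrnpm had 3 rows. Hnrnpm-201 measured 27.0 and 28.1 FPKM in Ctrl-i and 49.7 and 48.3 FPKM in Fmr-i1, and the groups were apart by far more than the libraries of a group differed, with a log2 difference of 0.81 ± 0.33 (SE, adjusted p = 0.946 by limma). Hnrnpm-206 was lower in both experiments, at 2.87 and 5.63 against 1.40 and 5.34 FPKM, with overlap and almost no difference in Exp.2. Hnrnpm-202 measured 13.0 and 4.37 against 3.40 and 9.32 FPKM. Hnrnpm-202 and Hnrnpm-206 hold 117 coding bases that Hnrnpm-201 lacks, at chr17:33666530-33666646 on the minus strand (GRCm38), between bases shared by all 3 rows.
Hnrnpm-206: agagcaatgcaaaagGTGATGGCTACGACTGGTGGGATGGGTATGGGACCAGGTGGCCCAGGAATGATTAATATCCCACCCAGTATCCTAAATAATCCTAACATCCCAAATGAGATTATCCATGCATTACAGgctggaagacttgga
The segment, in capitals, is a multiple of 3 bases long and keeps the reading frame. Rows that hold it took 37.0% and 26.2% of the Hnrnpm level in Ctrl-i, and 8.82% and 23.3% after Fmr-i1. Both Fmr-i1 libraries were below both Ctrl-i libraries, but in Exp.2 the difference was small.

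Srsf5, the most abundant SR protein gene here, had 4 rows. Srsf5-201 measured 45.9 and 36.0 FPKM in Ctrl-i and 53.4 and 76.5 FPKM in Fmr-i1, and Srsf5-202 measured 17.1 and 17.2 against 27.9 and 20.4 FPKM. Srsf5-203 was lower, at 22.7 and 29.0 against 15.2 and 22.5 FPKM, and none of these 3 rows had overlapping groups. The noncoding Srsf5-211, of 538 bases, measured 37.8 and 62.9 against 71.1 and 54.8 FPKM. Srsf5-201 and Srsf5-203 have the same coding sequence and share 97.6% of their exonic bases, and Srsf5-202 and Srsf5-203 share 99.5%. The coding sequence of Srsf5-202 has 3 more bases than that of the other 2, at chr12:80949717-80949719 on the plus strand (GRCm38), shown in capitals to make plain how little separates these rows.
Srsf5-202: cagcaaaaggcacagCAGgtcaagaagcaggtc
The row with the 3 bases made up 19.97% and 20.9% of the coding rows in Ctrl-i, and 28.9% and 17.1% after Fmr-i1, with no common direction.

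Snrpa, the U1 snRNP protein A, which binds a stem loop of U1 snRNA, had rows that differ outside the coding sequence. Snrpa-201 measured 11.7 and 20.7 FPKM in Ctrl-i and 24.9 and 26.4 FPKM in Fmr-i1, and Snrpa-202 measured 28.4 and 20.5 against 23.0 and 9.45 FPKM. Both have the same coding sequence and share 97.9% of their exonic bases, with 29 bases present only in Snrpa-201. Snrpa-201 made up 29.2% and 50.3% of the 2 rows in Ctrl-i, and 52.0% and 73.6% after Fmr-i1. The share was higher in each experiment, but Ctrl-i Exp.2 was close to Fmr-i1 Exp.1. Hnrnph1, which binds G tracts as Hnrnpf does, entered the count with differences that were small in Exp.1 and, for its noncoding rows, large in Exp.2. Hnrnph1-201 measured 58.7 and 33.7 against 63.8 and 34.8 FPKM, Hnrnph1-212 measured 9.04 and 0.71 against 9.33 and 11.4 FPKM, and the low Hnrnph1-204 measured 0.38 and 1.71 against 0.35 and 0.42 FPKM. Over all 6 genes, 11 pairs of rows were on opposite sides, and 3 of these pairs had the same coding sequence, as did 5 of the 51 other pairs of rows within a member gene. Opposed pairs shared a median of 60.2% of their exonic bases and other pairs 45.2%.

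**Figure D5:**
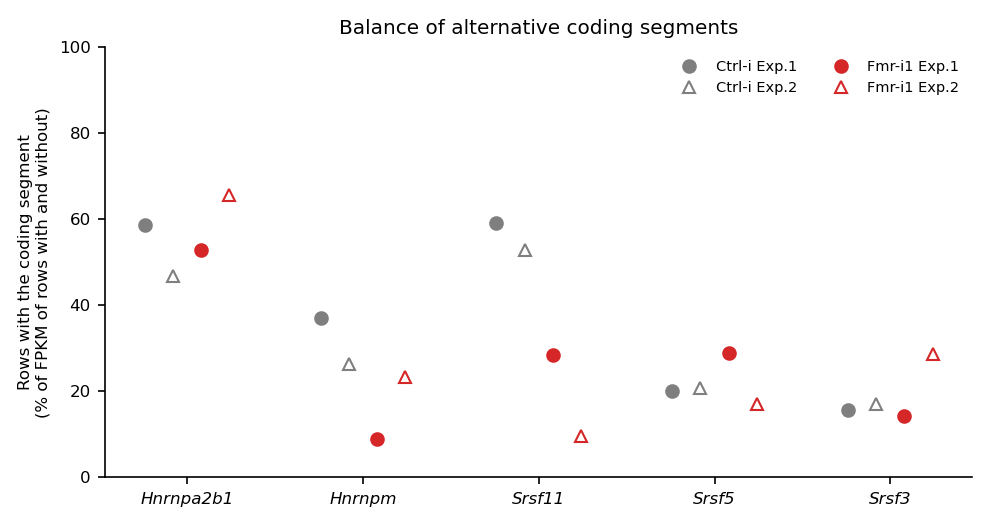
Share of the level, in percent, held by the rows that carry the alternative coding segment of each gene, in the 2 Ctrl-i libraries (grey) and the 2 Fmr-i1 libraries (red), with circles for Exp.1 and triangles for Exp.2. For Srsf11 and Hnrnpm both red points are below both grey ones, and for Hnrnpa2b1, Srsf5 and Srsf3 the order of the groups differs between experiments.

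Some member rows were near 0 in 1 library and well expressed in another, within as well as between groups. This was so for 7 of 94 rows (7.45%), with less than 0.1 FPKM in a library and more than 5 FPKM in another, beside 2.36% of all rows, a description chosen after the values were seen. The 2 shares are not fully comparable, since 86 of the 94 member rows averaged 5 FPKM or more, beside 8390 of 12515 rows in all. Hnrnph2-202, the only row of its gene, measured 14.5 and 12.3 FPKM in Ctrl-i and 26.4 and 0.01 FPKM in Fmr-i1. Hnrnpc-202 measured 0.06 and 16.3 against 0.05 and 0.10 FPKM, while Hnrnpc-201, with the same coding sequence and 98.1% of the exonic bases shared, measured 48.2 and 39.9 against 39.7 and 48.2 FPKM. The lower sum of Hnrnpc in Exp.2 thus came from Hnrnpc-202 alone. Snrpd3-203 measured 13.3 and 6.42 against 0.07 and 31.8 FPKM, and Snrpa-203 measured 0.02 and 6.81 against 5.29 and 3.22 FPKM. Hnrnpdl-205 was near 0 only in Fmr-i1 Exp.2, at 6.83 and 8.67 against 8.46 and 0.05 FPKM. Hnrnph3-201 was near 0 only in Fmr-i1 Exp.1, at 9.63 and 9.89 against 0.01 and 5.90 FPKM, and the nonsense-mediated decay row Hnrnph3-204 measured 14.9 and 4.26 against 10.97 and 14.5 FPKM. The seventh row was U2af1l4-201, near 0 in Ctrl-i Exp.1. Of these 7 rows, 6 were near 0 in a single library, and in each of those 6 the partner library of the same group was above 5 FPKM.

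Other genes of the splicing pathway, taken from lists outside the symbol rule, were read beside the members. None of their genes passed the test by limma over 9804 gene sums, and in each list the median log2 difference is read beside 0.165 over all genes. Counts of genes higher and lower in both experiments are given as deposited and after median scaling, where all gene sums had 35.1% and 16.1%, and 23.9% and 26.4%. Of 30 measured snRNP and tri-snRNP genes outside the rule 13 were higher in both experiments and 2 lower, or 8 and 8 after median scaling, with a median of 0.27. Lsm7 of the Lsm ring, at 59.5 and 80.1 against 130 and 90.4 FPKM, had the smallest p of these, followed by Ddx46, a helicase of the U2 snRNP step, and Lsm2. For 34 genes of the catalytic spliceosome and the Prp19 complex the counts were 14 and 6, which turned to 7 and 10 after median scaling, with a median of 0.18. Crnkl1 of the Prp19-related complex measured 21.8 and 14.1 against 50.2 and 31.0 FPKM, while Dhx35 and Slu7 each had a library at 0.01 FPKM. For 10 minor spliceosome genes the counts were 4 and 2, which turned to 1 and 5 after median scaling, with a median of 0.043. Zmat5, a U11/U12 protein, was lower at 22.4 and 18.7 against 11.9 and 5.94 FPKM, and Zcrb1 and Pdcd7 were higher in both experiments but not after median scaling. For 39 other splicing regulators the counts were 19 and 5, or 12 and 6 after median scaling, with a median of 0.26 over 38 tested. Son, a nuclear speckle protein, measured 31.0 and 15.2 against 41.7 and 47.5 FPKM, Puf60 measured 39.6 and 11.5 against 47.1 and 45.0 FPKM, and Acin1 was lower at 5.75 and 4.18 against 0.74 and 1.70 FPKM.

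Genes that assemble snRNPs or handle SR proteins and spliced mRNA were measured beside the members. Of 17 measured snRNP assembly genes 10 were higher in both experiments and 2 lower, or 7 and 3 after median scaling, with a median log2 difference of 0.32. Wdr77, at 7.69 and 10.2 against 16.9 and 20.7 FPKM, acts in the methylation of Sm proteins such as Snrpd1. Gemin2, at 1.40 and 3.10 against 6.59 and 7.70 FPKM, acts in their loading. Gemin4, with 0.01 FPKM in Ctrl-i Exp.2, belongs to the same complex as Gemin2. For 10 genes of SR protein kinases and transport the counts were 3 and 0, which turned to 1 and 4 after median scaling. Their median was 0.14, led by Tnpo3, the importin of SR proteins, at 19.9 and 9.21 against 26.6 and 18.9 FPKM, with Prpf4b and Ppp1cc next. For 13 genes of the exon junction complex and mRNA export they were 7 and 2, or 6 and 5 after median scaling, with a median of 0.24, led by Alyref, Casc3 and Nxt1. For 11 genes of nonsense-mediated decay they were 3 and 1, which turned to 2 and 3 after median scaling, with a median of 0.17, and the smallest p belonged to Smg5, Nbas and Upf2. Of a list of noncoding RNAs, Malat1, which resides in nuclear speckles, measured 35.5 and 97.3 FPKM in Ctrl-i and 68.4 and 208 FPKM in Fmr-i1, and Neat1 measured 89.2 and 62.3 against 107 and 159 FPKM. Gas5 measured 146 and 89.0 against 108 and 114 FPKM. Of the 6 measured RNAs of this list, 2 (Malat1 and Neat1) were higher in both experiments and 0 were lower, also after median scaling. The groups overlapped for Malat1 and were apart for Neat1. The part of Malat1 and Neat1 in the members' levels was not tested. Of the 18 measured genes of the ependymal marker list, 6 were higher in both experiments and 3 lower, or 5 and 5 after median scaling. All gene sums had 35.1% and 16.1%, or 23.9% and 26.4%. By limma the smallest p on that list belonged to S100b, which was lower (91.7 and 126 against 50.8 and 52.6 FPKM). Next were Mcidas (2.37 and 2.93 against 10.7 and 8.39 FPKM) and Rsph9 (83.1 and 106 against 138 and 150 FPKM), both higher. Acta2, the mural cell marker that made up nearly all of its list's sum, was higher at 73.3 and 55.9 against 150 and 100 FPKM.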

How the data were processed

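Total RNA of purified multicilia was captured on poly(A) beads and made into stranded libraries. The authors deposited a table of FPKM values per transcript with 2 decimals. The study's methods name Cutadapt 1.9.1, Hist 2.0.1 and Cuffdiff 2.2.1 on GRCm38/mm10, whereas HISAT2 2.1.0 with featureCounts 1.5.3 appear in the processing notes of the submitters, so the program behind the table was not settled. The length column equals the genomic span of the transcript in 90.3% of rows, so levels of genes with long introns may be understated if it was the divisor. Transcript estimates divide fragments between overlapping rows, which can move level from a row to its neighbour.

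GENCODE M21 names, types and sequences (GRCm38) were matched by transcript ID for 12483 rows, and 25 symbols turned into dates were restored. FPKM was summed per symbol. Rows, sums and shares of a row within its gene, log2((row + 1)/(other rows + 1)), were tested by limma (3.58.1, R 4.3.3) on log2(FPKM + 1) where they averaged 1 FPKM or more, with a variance trend, experiment as a block and an adjusted p threshold of 0.05 over all features. The study compared libraries within an experiment, which gave the block, although the deviations of same-numbered libraries had a correlation of -0.0822. The scripts were tested on simulated data. Python 3.11.15 and pandas 2.3.3 made the counts. Directions use the ratio of Fmr-i1 to Ctrl-i within each experiment. The members and lists were chosen with earlier results of these data known. Named were the genes with opposed rows, rows listed at 0, the 5 highest Ctrl-i sums of each family, up to 8 largest rises and falls of sums that averaged 5 FPKM or more and had 1 direction in both experiments, and up to 3 genes of each other list by p. Only 3 falls met this. Alternatives were other pseudocounts, filters and scalings, no block, no trend and each library left out, the last also without the block.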

Additional observations from a re-analysis of the deposited data

How the results depend on the processing

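No member row, gene sum or row share passed the adjusted threshold under any of the 13 alternatives run. Over all features, rows called were 3 with no replicate block, and row shares called were 8 with no replicate block, 4 with a pseudocount of 5 FPKM, 7 where rows averaged 5 FPKM or more and 4 after quantile normalization. With a library left out they were 0 to 6, with 6 without Ctrl-i replicate 1 and 4 without Ctrl-i replicate 2. The median log2 difference of member sums was 0.23 in the fit reported, 0.039 after median scaling, 0.065 after quantile normalization and 0.144 to 0.286 with a library left out.

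The opposed genes, of 23, were 1 at a ratio past 1.5 (Srsf11; 2.93% of all such genes) and 3 with no replicate block, that is with both Fmr-i1 libraries outside both Ctrl-i libraries (Hnrnpa2b1, Srsf5 and Srsf11; 10.7% of all). They were 14 to 15 (54.6% to 57.7% of all) when a left-out library reduced the comparison to 1 experiment, where 1 ratio in place of 2 had to be met. Of 94 member rows, those higher in both experiments were 4 past a ratio of 1.5 (9.18% of all rows), 24 after median scaling (23.5%) and 54 to 67 with a library left out (53.5% to 62.1%). Rows lower in both were 4 past 1.5 (5.31%), 7 where rows averaged 5 FPKM or more (15.8%), 21 after median scaling (26.9%), 6 with no replicate block (11.9%) and 27 to 40 with a library left out (37.4% to 45.9%). Gene sums, with alternatives chosen after seeing the data, were higher for 18 of 55 genes past a ratio of 1.1 (26.5% of all), 2 past 1.5 (8.31%), 15 after median scaling (23.9%), 18 after quantile normalization (26.1%) and 35 to 45 with a library left out (54.2% to 64.5%). They were lower for 1 gene past 1.5 (3.88%), 10 after median scaling (26.4%), 8 after quantile normalization (23.7%), 5 when rescaled without mitochondrially encoded RNAs (18.6%), 1 with no replicate block (10.7%) and 10 to 20 with a library left out (35.2% to 45.4%). Unknown depth and 2 libraries per group limit all values.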
